A study of Homo sapiens with 10 samples.

Results

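VEGF-C is a secreted growth factor for lymphatic and blood endothelium that is made as a large inactive precursor. The proprotein convertases encoded by *FURIN*, *PCSK5* and *PCSK7* cut the precursor once, and the metalloprotease ADAMTS3, held near its substrate by the matrix protein CCBE1, makes the second cut that lets the growth factor activate its receptors. Loss of *CCBE1* or of *VEGFC* function is known to cause congenital lymphedema. The expression of these 5 genes (*VEGFC*, *CCBE1*, *FURIN*, *PCSK5* and *PCSK7*) was followed here, out of 27946 gene symbols in the expression table and 13334 that passed the filter on low values. The genes were chosen by symbol, and for each symbol the RefSeq transcript with the highest mean expression was kept. All 5 were among the tested genes.

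The cells were EA.hy926, an established line made by fusing human umbilical vein endothelial cells with the A549 lung carcinoma line. CRISPR/Cas9 was used with paired guide RNAs to remove the promoter region of either of a pair of long noncoding RNAs, *VEGFA-LNC* and *VEGFC-LNC*, which lie near *VEGFA* and *VEGFC*. Each deletion was represented by 3 libraries, each from a clone grown out of a single edited cell, and each was compared with its own 2 control libraries from cells that had received the guide RNAs without Cas9 and had passed through the same clonal selection. The study states that the clones chosen for expression analysis were homozygous for their deletion, and it describes the sequenced lines as knockouts. No other treatment, genotype or time point is named for these libraries, and all 10 came from this line. Whether the *VEGFA-LNC* and *VEGFC-LNC* sets were cultured and selected at the same time is not given. rRNA-depleted total RNA was sequenced from one end of each fragment. The deleted lncRNAs themselves were not analysed here, so the values below do not check the deletions.

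The library sizes recovered from the FPKM values were 6743971 to 24197619 reads, the lowest in replicate 3 of the *VEGFC-LNC* deletion. Which reads the authors counted into these sizes is not given. Expression is given as FPKM, reads per length of transcript and per size of library. The control libraries of a set lay close together: over genes with at least 20 reads in the pair, the mean squared difference was 3.75 times the counting variance for the *VEGFA-LNC* controls and 1.54 times for the *VEGFC-LNC* controls, against 18.3 to 138 times for pairs of clones carrying the same deletion. The widest distances, 90.4 and 138, were those of replicate 1 of the *VEGFA-LNC* deletion. Of 9 endothelial marker genes, 8 were tested while *CLDN5* was at 0 in all libraries, and the summed level was 286 to 316 FPKM in the controls and 177 to 732 FPKM in the clones. Of 7 epithelial markers, 4 were tested, with sums of 900 to 1090 FPKM in the controls and 440 to 1310 FPKM in the clones, while *EPCAM*, *CDH1* and *KRT19* did not pass the filter. Of 4 markers of other cells 3 were tested, with sums of 20.3 to 20.6 FPKM in the *VEGFA-LNC* controls, 1.04 to 1.46 FPKM in the *VEGFC-LNC* controls and 1.49 to 60.4 FPKM in the clones. Among the markers the DEGs were *COL1A1*, a fibroblast collagen, upon *VEGFA-LNC* deletion (log2 FC -1.5, SE 0.31, limma FDR = 0.0422) and between the control sets (-1.34, SE 0.34, FDR = 0.037), and *ACTA2*, smooth muscle actin, between the control sets (-4.47, SE 1.19, FDR = 0.0412). Of all tested genes, 2.75% were DEGs upon *VEGFA-LNC* deletion and 12.7% between the control sets. *COL1A1* rested on 29 and 44 reads in the *VEGFA-LNC* controls and on 0 to 13 in the other libraries, while *ACTA2* was at 19.8 and 19.5 FPKM in the *VEGFA-LNC* controls and at 0.950 and 0.659 FPKM in the *VEGFC-LNC* controls. Both lost their calls with the control libraries of a set averaged. *ACTA2* also lost its call with a pseudocount of 1 (FDR = 0.0558), without the filter on low values (FDR = 0.11) and with voom (FDR = 0.148). *COL1A1* upon *VEGFA-LNC* deletion also lost its call with a pseudocount of 0.01 (FDR = 0.153). The same held with only the 5 libraries of the comparison (FDR = 0.13) and against all 4 controls (FDR = 0.436). The part of these marker levels in the results below was not tested. In RNA from whole cultures, fewer cells of a type and less RNA per cell cannot be told apart. Nothing in the labels ties the control libraries to separate clones, so p-values measure only the spread between these libraries.

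*VEGFC* (NM_005429, chromosome 4, 177604685 to 177713899 in hg19, minus strand) and *CCBE1* (NM_133459, chromosome 18, 57098171 to 57364644, minus strand) are the pair of genes whose values the results below turn on, and the 250 bases upstream of the start of each are shown for that reason. The sequences come from RefSeq in build GRCh38.p14, at chr4:176792923-176793172 and chr18:59697424-59697673, both on the minus strand. Capitals mark the matches, on either strand, to the GC box GGGCGG in *VEGFC* and to the hypoxia core ACGTG in *CCBE1*.
VEGFC: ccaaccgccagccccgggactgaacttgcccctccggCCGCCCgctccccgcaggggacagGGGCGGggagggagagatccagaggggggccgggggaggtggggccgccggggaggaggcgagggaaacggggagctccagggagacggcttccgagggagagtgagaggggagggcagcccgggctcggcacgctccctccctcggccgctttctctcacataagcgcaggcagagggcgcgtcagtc
CCBE1: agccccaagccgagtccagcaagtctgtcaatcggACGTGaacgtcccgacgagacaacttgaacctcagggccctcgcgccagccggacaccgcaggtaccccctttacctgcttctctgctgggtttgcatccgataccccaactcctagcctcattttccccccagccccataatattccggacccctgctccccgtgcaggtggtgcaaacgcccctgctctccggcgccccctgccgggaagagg
The upstream region of *VEGFC* was 74.0% G and C and held 2 GC boxes. That of *CCBE1* was 63.2% G and C, held no GC box and held 1 ACGTG. Among 35116 RefSeq promoters of the same length, with a median of 58.0% G and C, 42.6% held GGGCGG and 18.5% held ACGTG. Neither region held the CCAAT box, which occurred in 32.0% of all promoters. The TATA box (TATAAA, in 10.7%) was not found in them either, nor was the AP-1 site (TGANTCA, in 6.57%). No binding or methylation was measured, so these matches describe the letters alone.

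*VEGFC*, the growth factor gene, was expressed at 16.1 and 16.0 FPKM in the 2 *VEGFA-LNC* controls and at 9.47 and 10.5 FPKM in the 2 *VEGFC-LNC* controls. In the *VEGFA-LNC* deletion clones the levels were 11.6, 11.4 and 10.8 FPKM. In the *VEGFC-LNC* deletion clones they were 5.38, 4.84 and 4.63 FPKM. The 4 groups did not overlap, and the order from high to low was *VEGFA-LNC* controls, *VEGFA-LNC* clones, *VEGFC-LNC* controls and *VEGFC-LNC* clones. The middle groups were close neighbours, with the lowest *VEGFA-LNC* clone at 10.8 FPKM and the higher *VEGFC-LNC* control at 10.5 FPKM, a gap below the SD of those controls (0.722 FPKM, n = 2). These values rest on 65 to 750 reads per library. Groups apart from each other, either way, were common. This held for 82.9% of tested genes between the control sets, 39.0% upon *VEGFA-LNC* deletion and 47.8% upon *VEGFC-LNC* deletion. The share of tested genes with all 4 groups apart was not counted.

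**Figure D1:**
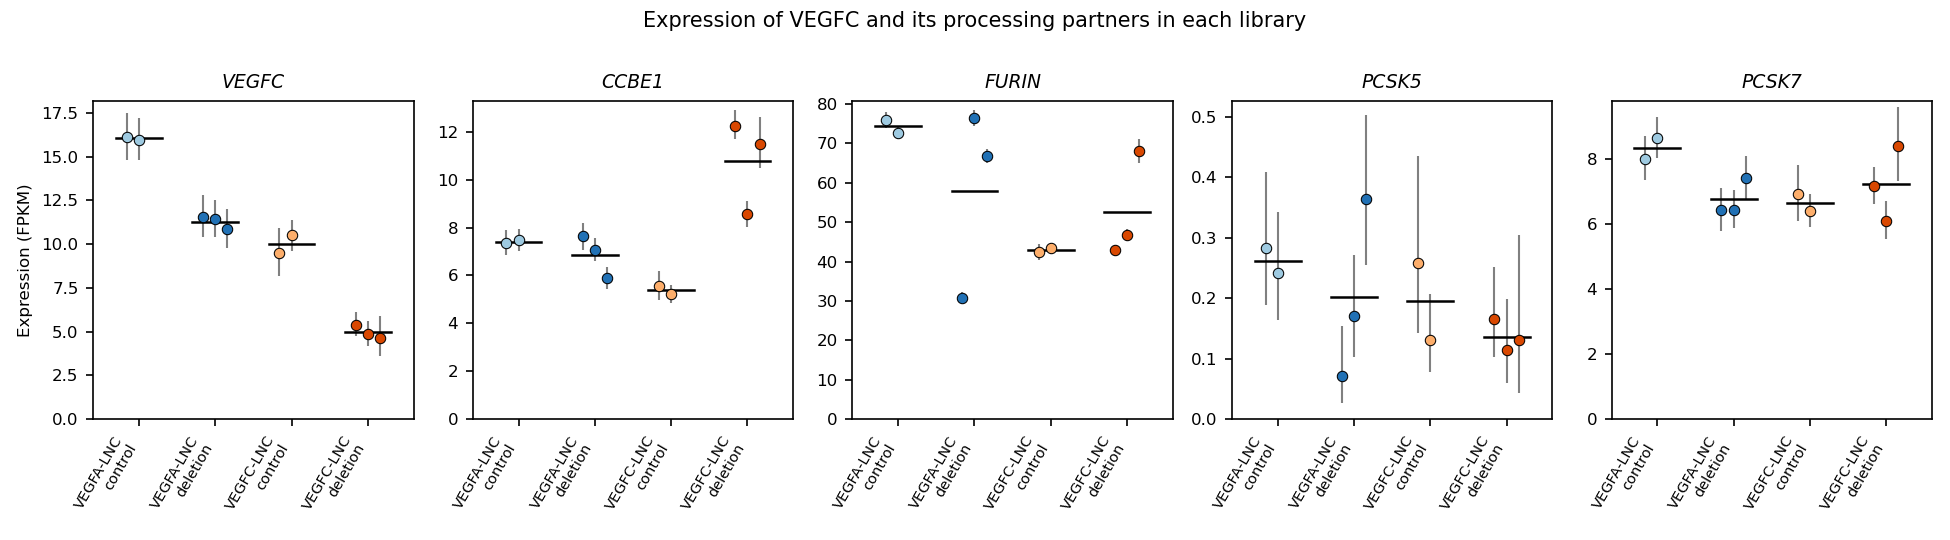
Expression in FPKM (y axis, from 0, 1 panel per gene) of the 5 genes in each of the 10 libraries, by group (x axis). Points are libraries in the order of their replicate numbers, horizontal lines are group means and grey bars are 95% Poisson intervals of the reads, which cover counting error only. The *VEGFC-LNC* clones sit lowest for *VEGFC* (4.63 to 5.38 FPKM) and highest for *CCBE1* (8.56 to 12.3 FPKM).

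Upon deletion of *VEGFC-LNC*, *VEGFC* fell 2.0-fold. Its mean was 9.98 ± 0.722 FPKM (SD, n = 2) in the controls and 4.95 ± 0.388 FPKM (SD, n = 3) in the clones, the fold change on the log2(FPKM + 0.1) scale being -1.0 (SE 0.12, 95% interval -1.28 to -0.72, limma FDR = 0.0145). It was the only one of the 5 genes that was a differentially expressed gene (DEG), that is, a gene with an FDR below 0.05 whose fold change (FC) reached 1.5, while 0.472% of all tested genes were DEGs in this comparison. All 3 clones were below both controls, as was the case for 30.6% of tested genes, and 5.3% of tested genes had an FC as low as that of *VEGFC* or lower. When the control libraries of a set were averaged into 1 sample, the log2 FC was the same and the call was lost (FDR = 0.825). It was also lost with the replicate number as a block (log2 FC -0.96, FDR = 0.0743), with only the 5 libraries of the comparison (FDR = 0.0712), without either *VEGFC-LNC* control (FDR = 0.188 and 0.291), without either *VEGFA-LNC* control (FDR = 0.0628 and 0.0627), which enter through the shared estimate of the spread, and without replicate 2 of the *VEGFC-LNC* deletion (FDR = 0.0556).

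Upon deletion of *VEGFA-LNC*, *VEGFC* was measured at 11.3 ± 0.386 FPKM (SD, n = 3) while its controls had a mean of 16.0 ± 0.105 FPKM (SD, n = 2). The log2 FC of *VEGFC* here was -0.51 (SE 0.12, 95% interval -0.79 to -0.23, limma FDR = 0.0666). All 3 clones were below both controls, as was the case for 23.7% of tested genes, and the 1.42-fold difference missed both thresholds. In this comparison none of the 5 genes was a DEG, against 2.75% of all tested genes. Set against each other, the deletions differed in their effect on *VEGFC* by -0.49 on the log2 scale (SE 0.17, 95% interval -0.89 to -0.10, limma FDR = 0.187), so a larger change upon *VEGFC-LNC* deletion was not shown. None of the 5 genes differed between the deletions by this test, against 1.45% of tested genes (194 genes, and 86 with the replicate block). For *VEGFC* the two-sided exact permutation test over the 5 libraries gave p = 0.2 in each deletion, the lowest value this design can give.

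The control sets differed in *VEGFC* as well. *VEGFC* was 1.6-fold lower in the *VEGFC-LNC* controls than in the *VEGFA-LNC* controls (log2 FC -0.68, SE 0.13, 95% interval -0.99 to -0.38, limma FDR = 0.0172). It was again the only DEG of the 5 genes, but here 12.7% of all tested genes were DEGs. Both *VEGFC-LNC* controls were below both *VEGFA-LNC* controls, as was the case for 49.2% of tested genes. The call was lost without any single control library (FDR 0.0975 to 0.157) and with the control libraries of a set averaged (FDR = 0.517). This comparison shares its libraries with both deletion comparisons. Scaling the libraries by the median of ratios moved the median log2 FC of all genes by 0.104 in this comparison and left *VEGFC* at -0.57, below the 1.5-fold threshold (FDR = 0.0313). When the 4 controls were pooled, *VEGFC* had a log2 FC of -1.34 in the *VEGFC-LNC* clones (FDR = 0.0229) and -0.16 in the *VEGFA-LNC* clones (FDR = 0.745).

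*CCBE1*, the cofactor of the activating cleavage, went the other way in the *VEGFC-LNC* clones. Its level was 5.56 and 5.22 FPKM in the *VEGFC-LNC* controls and 12.3, 8.56 and 11.5 FPKM in the 3 clones. Every clone was above both controls, as was the case for 17.2% of tested genes, and the clones differed among themselves by more than the controls (SD 1.95 FPKM, n = 3, against 0.243 FPKM, n = 2). The log2 FC was 0.97 (SE 0.18, 95% interval 0.55 to 1.38), a 1.96-fold higher mean, and its limma FDR of 0.0614 missed the threshold. The FC stood at or above that of 97.2% of tested genes. *CCBE1* passed the threshold when the libraries were scaled by the median of ratios (log2 FC 1.06, FDR = 0.0336), in the voom fit to recovered reads (log2 FC 1.07, FDR = 0.0318) and without replicate 1 of the *VEGFA-LNC* deletion (FDR = 0.0177), and it did not pass with each pair of controls counted as 1 sample (FDR = 0.876).

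In the *VEGFA-LNC* set, *CCBE1* was at 7.36 and 7.47 FPKM in the controls and at 7.63, 7.07 and 5.89 FPKM in the clones. These ranges overlapped, and the log2 FC was -0.12 (SE 0.18, 95% interval -0.53 to 0.30, limma FDR = 0.774). For *CCBE1* the effects of the deletions differed by 1.09 (SE 0.26, 95% interval 0.50 to 1.68, limma FDR = 0.0785). It passed the threshold only in the voom fit (FDR = 0.0424) and without replicate 1 of the *VEGFA-LNC* deletion (FDR = 0.0396). Between the control sets, *CCBE1* differed by -0.45 (SE 0.20, limma FDR = 0.162).

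The FPKM ratio of *CCBE1* to *VEGFC* was highest in the *VEGFC-LNC* clones. It was 0.456 and 0.468 in the *VEGFA-LNC* controls, 0.659, 0.619 and 0.544 in the *VEGFA-LNC* clones, and 0.588 and 0.498 in the *VEGFC-LNC* controls. In the *VEGFC-LNC* clones it was 2.28, 1.77 and 2.48. The mean of 2.18 ± 0.365 (SD, n = 3) in these clones compared with 0.543 ± 0.0636 (SD, n = 2) in their controls. The separation was not particular to *CCBE1*, since *VEGFC* as the denominator was low in these clones. The ratio of *FURIN* to *VEGFC* was 7.95 to 14.7 in them and 2.66 to 6.69 in the other 7 libraries, and that of *PCSK7* to *VEGFC* was 1.26 to 1.82 and 0.497 to 0.731. These ratios join the values of the single genes and add no test.

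*FURIN*, the most broadly used of the convertases (NM_001289823, chromosome 15, 91414769 to 91426688, plus strand), was the most strongly expressed of the 5 genes, with a mean of 56.6 FPKM, above 92.9% of tested genes. The levels were 76.0 and 72.7 FPKM in the *VEGFA-LNC* controls and 30.8, 76.4 and 66.8 FPKM in the clones. It was at 42.3 and 43.3 FPKM in the *VEGFC-LNC* controls and at 42.8, 46.6 and 68.0 FPKM in the clones. In both sets the clones overlapped the controls, reaching mostly below them in the first set and above them in the second. The clones spread by 41.5% and 25.9% of the mean (SD) where the controls spread by 3.16% and 1.61%. Its log2 FC was -0.46 (SE 0.36, 95% interval -1.27 to 0.35, limma FDR = 0.524) upon *VEGFA-LNC* deletion and 0.26 (SE 0.36, 95% interval -0.55 to 1.07, limma FDR = 0.70) upon *VEGFC-LNC* deletion. These intervals leave room for changes of more than 1.5-fold. Upon *VEGFA-LNC* deletion the value was -0.057 without replicate 1 and -0.71 without replicate 2 of the clones. Between the control sets *FURIN* differed by -0.79 (SE 0.39, limma FDR = 0.204), a difference that passed without replicate 1 of the *VEGFA-LNC* deletion (FDR = 0.0238), the clone at 30.8 FPKM. This SE takes in the spread of the clones, since the 4 groups share 1 estimate of the spread. The 3 *FURIN* transcript rows of the table gave the same log2 FC to within 0.01.

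*PCSK7*, a convertase of the late secretory pathway (NM_004716, chromosome 11, 117075787 to 117103241, minus strand), had the flattest profile of the 5 genes over the 10 libraries (root mean square deviation of 0.167 on the log2 scale), although *VEGFC* had the smaller SE within groups (0.12 against 0.16). *PCSK7* was at 8.02 and 8.65 FPKM in the *VEGFA-LNC* controls and at 6.44, 6.44 and 7.42 FPKM in the clones. All 3 of these clones were below both controls, as were those of 23.7% of tested genes, with a log2 FC of -0.30 (SE 0.16, 95% interval -0.66 to 0.07, limma FDR = 0.35). In the *VEGFC-LNC* set it was at 6.92 and 6.40 FPKM in the controls and at 7.17, 6.11 and 8.41 FPKM in the clones. The groups overlapped, with a log2 FC of 0.11 (SE 0.16, 95% interval -0.26 to 0.47, limma FDR = 0.731), and the interval held no change of 1.5-fold.

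*PCSK5*, a convertase that acts largely at the cell surface (NR_120409, chromosome 9, 78505560 to 78810805, plus strand), was barely detected. Its highest transcript row, a noncoding variant, had 5 to 36 reads per library and a mean of 0.193 FPKM, above 1.51% of tested genes. The levels were 0.283 and 0.241 FPKM in the *VEGFA-LNC* controls, 0.071, 0.171 and 0.364 FPKM in the clones, 0.259 and 0.131 FPKM in the *VEGFC-LNC* controls, and 0.165, 0.114 and 0.130 FPKM in the clones. All groups overlapped but for the *VEGFC-LNC* clones and the *VEGFA-LNC* controls. The log2 FC was -0.38 (SE 0.42, limma FDR = 0.673) and -0.29 (SE 0.42, limma FDR = 0.717) in the deletions, with intervals of -1.33 to 0.57 and -1.24 to 0.66. The first of these values ran from -0.75 to -0.027 with 1 library left out, the smallest without replicate 1 of the clones. A change within these intervals was not detectable with these libraries, given their few reads and the spread of the clones. Replicates 1 and 3 of the *VEGFA-LNC* deletion differed beyond counting error. Their 95% Poisson intervals were 0.026 to 0.154 and 0.255 to 0.503 FPKM.

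**Figure D2:**
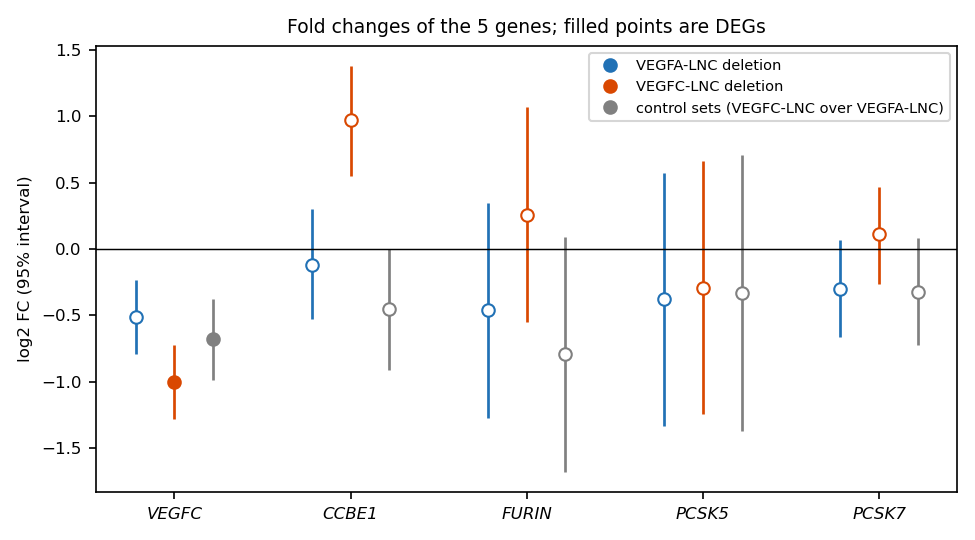
Fold changes (y axis, log2, with 95% intervals from the limma fit) of the 5 genes (x axis) for the *VEGFA-LNC* deletion, the *VEGFC-LNC* deletion and the *VEGFC-LNC* controls over the *VEGFA-LNC* controls. Filled points are DEGs: *VEGFC* upon *VEGFC-LNC* deletion (-1.0) and between the control sets (-0.68). The interval of *CCBE1* upon *VEGFC-LNC* deletion (0.55 to 1.38) lies above 0.

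Most genes around *VEGFC* had a log2 FC below 0 in the same clones, but only 1 of those within 10 Mb passed the test. Within 5 Mb of *VEGFC*, 11 genes were tested, and upon *VEGFC-LNC* deletion all 11 had a log2 FC below 0, with a median of -0.81. Over all tested genes 59.0% had a log2 FC below 0, with a median of -0.091. Scaling the libraries by the median of ratios moved this median to -0.004 and left *VEGFC* at -0.91 (limma FDR = 0.0227). The values of the neighbours are given without this scaling. None of the 11 was a DEG, against 0.472% of all tested genes, and 3 had a log2 FC at or below that of *VEGFC*. Within 10 Mb, 36 of 41 genes had a log2 FC below 0 (median -0.53, 1 DEG), and over the 452 tested genes of chromosome 4 the median was -0.26. The nearest tested gene on the side of lower coordinates was *SPCS3*, a signal peptidase subunit 351289 bases away (chromosome 4, 177241090 to 177253396), with a log2 FC of -0.35 (SE 0.20, limma FDR = 0.352). On the other side it was *NEIL3*, a DNA glycosylase 517092 bases away (178230991 to 178284092), with a log2 FC of -2.16 (SE 0.90, limma FDR = 0.25).

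**Figure D3:**
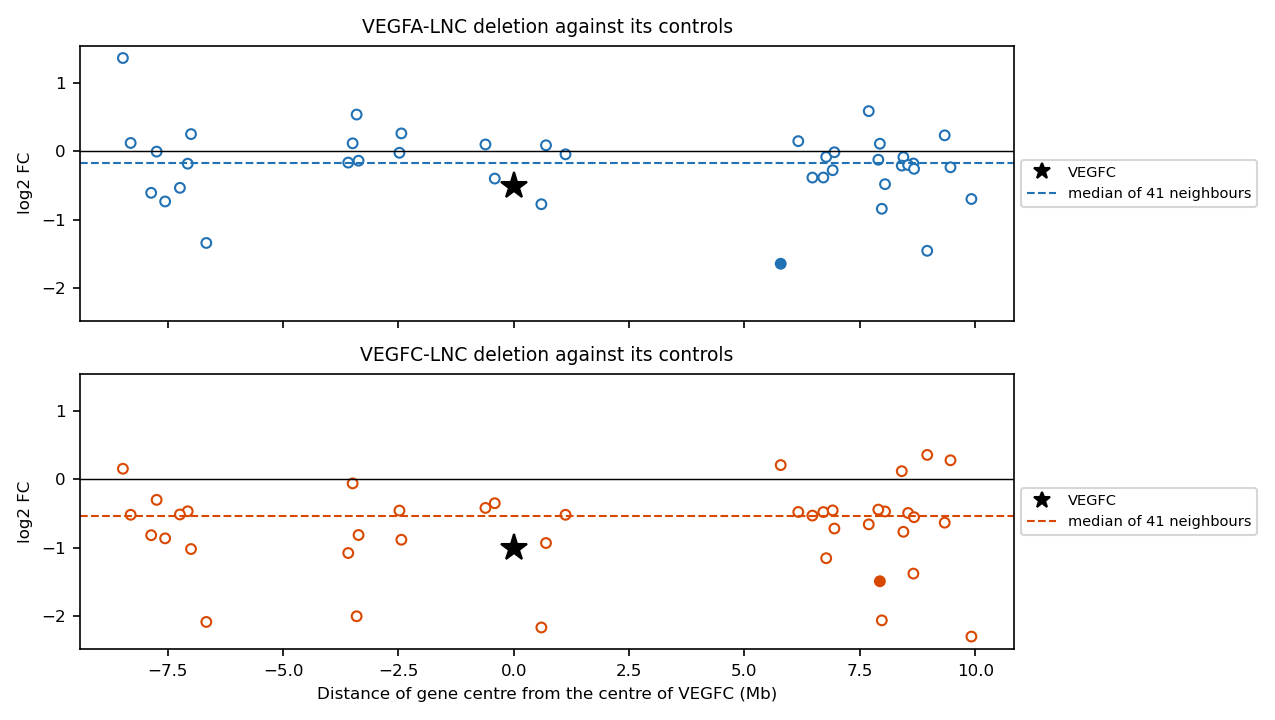
Log2 FC (y axis) of the 41 tested genes within 10 Mb of *VEGFC* against the distance of their centres from that of *VEGFC* (x axis, in Mb) for the *VEGFA-LNC* deletion (upper panel) and the *VEGFC-LNC* deletion (lower panel). The star is *VEGFC*, filled points are DEGs and dashed lines are the medians of the neighbours (-0.17 and -0.53). In the lower panel 36 of the 41 neighbours lie below 0.

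Clone by clone, *VEGFC* stood below the mean of the *VEGFC-LNC* controls by a log2 difference of -0.88, -1.03 and -1.09 in replicates 1, 2 and 3. The median of the 41 neighbours stood at -0.44, -0.62 and -0.63 in the same libraries, and that of the 11 nearer neighbours at -0.32, -0.94 and -0.79. *VEGFC* was thus 0.41 to 0.46 log2 units lower than the wider set of neighbours in each clone, given as the differences -0.44, -0.41 and -0.46. Against the 11 nearer genes the differences were less even, at -0.55, -0.09 and -0.30, and smallest in replicate 2. In the *VEGFA-LNC* clones *VEGFC* was at -0.47, -0.49 and -0.56 and the 41 neighbours at -0.17, -0.14 and -0.10, leaving differences of -0.30, -0.35 and -0.46. The part of the neighbours' shift in the *VEGFC* values was not tested. Between the control sets the neighbours within 10 Mb had a median log2 FC of -0.01, beside -0.68 for *VEGFC*.

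*CCBE1* stood apart from its surroundings. Upon *VEGFC-LNC* deletion the 45 tested genes within 10 Mb of it had a median log2 FC of -0.07. None of the 45 was a DEG, against 0.472% of all tested genes, and the log2 FC of *CCBE1* (0.97) was above all 45. On the whole of chromosome 18 it was at or above 190 of 193 genes. The nearest tested genes were *LMAN1*, a cargo receptor of the early secretory pathway 71663 bases away (log2 FC 0.07, SE 0.20, limma FDR = 0.857), and *PMAIP1*, a proapoptotic gene 202548 bases away (log2 FC 0.67, SE 0.41, limma FDR = 0.391). Within 1 Mb, 5 genes were tested around *VEGFC*, 5 around *CCBE1*, 20 around *FURIN*, 9 around *PCSK5* and 14 around *PCSK7*. The only DEGs among them in any comparison were found between the control sets, where 12.7% of all tested genes were DEGs. They were *UNC45A* (log2 FC -0.60, SE 0.13, FDR = 0.0232) and *NGRN* (log2 FC -0.78, SE 0.16, FDR = 0.0182) near *FURIN*, and *ZPR1* (log2 FC -0.65, SE 0.17, FDR = 0.038) near *PCSK7*. In the other comparisons 0.472% to 2.75% of all tested genes were DEGs.

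A list of 8 genes held other proteases reported to cut VEGF-C, plasminogen (*PLG*) among them, and the plasminogen activators *PLAU* and *PLAT*, which act on plasminogen. Of the 8 only *CTSD*, *PLAU* and *PLAT* were tested, and *PLG* did not pass the filter. *ADAMTS3*, the protease that CCBE1 assists, had 0 reads in all 10 libraries, which allows a level of up to 0.0214 to 0.0767 FPKM in a single library and 0.00301 FPKM over all 10 (3 reads, counting error only). *PLAT*, the tissue plasminogen activator, was at 735 and 771 FPKM in the *VEGFA-LNC* controls and at 85.3, 174 and 143 FPKM in the clones, and fell upon *VEGFA-LNC* deletion (log2 FC -2.55, SE 0.41, limma FDR = 0.0208). It was a DEG between the control sets too (-1.68, SE 0.45, FDR = 0.0434), as was *CTSD*, cathepsin D (-1.52, SE 0.22, FDR = 0.0067). Of all tested genes, 2.75% were DEGs upon *VEGFA-LNC* deletion and 12.7% between the control sets. Upon *VEGFC-LNC* deletion all 3 tested genes had a log2 FC above 0 (median 0.82) and none was a DEG. Of all 13334 tested genes, 5463 had a log2 FC above 0 in this comparison (median -0.091) and 0.472% were DEGs. *ADAMTS3*, *PLG* and *PLAU* are named although the rule for named genes did not select them, and so are *COL1A1* and *ACTA2* above and *FLT4*, *KDR*, *NRP2* and *PROX1* below, after their values were seen.

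Of 6 further proprotein convertases, 3 were tested, *PCSK1*, *PCSK4* and *MBTPS1*. *PCSK1*, the convertase of neuroendocrine granules, fell upon *VEGFA-LNC* deletion: its controls averaged 2.62 ± 0.135 FPKM (SD, n = 2), its clones averaged 0.712 ± 0.0699 FPKM (SD, n = 3) and the log2 FC was -1.75 (SE 0.24, limma FDR = 0.0116). Upon *VEGFC-LNC* deletion its log2 FC was -0.89 (SE 0.24, FDR = 0.126), and between the control sets it was -2.18 (SE 0.26, FDR = 0.00402). Of 4 convertase inhibitors 3 were tested, and *SERPINB8*, a serpin that inhibits furin, was a DEG between the control sets alone (-0.86, SE 0.23, FDR = 0.0435). Of 19 convertase substrates 17 were tested. Upon *VEGFC-LNC* deletion 14 of them had a log2 FC above 0 and 3 below, with a median of 0.21, and none was a DEG. Of all 13334 tested genes, 5463 had a log2 FC above 0 in this comparison (median -0.091) and 0.472% were DEGs. Upon *VEGFA-LNC* deletion *ITGAV*, the integrin alpha V subunit that furin-like enzymes cleave, fell as well. Its controls averaged 79.4 ± 1.21 FPKM (SD, n = 2), its clones averaged 35.4 ± 2.25 FPKM (SD, n = 3) and the log2 FC was -1.17 (SE 0.16, FDR = 0.012). The other 16 were not DEGs in that comparison. Of all tested genes, 2.75% were DEGs upon *VEGFA-LNC* deletion and 12.7% between the control sets. *ITGAV* also differed between the control sets (-2.12, SE 0.18, FDR = 0.00137), as did the membrane metalloprotease *MMP15* (-1.14, SE 0.21, FDR = 0.0139) and *TGFB2*, a growth factor precursor with 28 and 47 reads in the *VEGFA-LNC* controls and 1 read in each *VEGFC-LNC* control. With each pair of controls counted as 1 sample, none of the calls in these lists was kept (FDR 0.302 to 0.552). Against all 4 controls the calls upon *VEGFA-LNC* deletion were lost, with a log2 FC of -1.71 for *PLAT* (FDR = 0.219), -0.66 for *PCSK1* (FDR = 0.636) and -0.10 for *ITGAV* (FDR = 0.946). They were also lost with only the 5 libraries of the comparison (FDR 0.0569 to 0.0753). Between the control sets *SERPINB8* lost its call without a filter on low values (FDR = 0.0847) and with the median of ratios (FDR = 0.05), *PLAT* lost it in these fits (FDR = 0.108 and 0.0588) and with voom (FDR = 0.0656), and *TGFB2* had a log2 FC of -0.37 with a pseudocount of 1, below the 1.5-fold threshold. Without either *VEGFA-LNC* control the calls upon *VEGFA-LNC* deletion were lost (FDR 0.173 to 0.244), and without any one of the 4 controls those between the control sets were lost (FDR 0.0528 to 0.243) except that of *ITGAV*. *PLAT* upon *VEGFA-LNC* deletion was also lost without either *VEGFC-LNC* control (FDR = 0.0533 and 0.0531) or replicate 3 of its own clones (FDR = 0.0581). Between the control sets, *PLAT* and *SERPINB8* were lost without replicate 3 of the *VEGFA-LNC* deletion (FDR = 0.0632 and 0.0599) or replicate 2 of the *VEGFC-LNC* deletion (FDR = 0.0623 and 0.0538), and *SERPINB8* without replicate 3 of the latter (FDR = 0.0563).

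**Figure D4:**
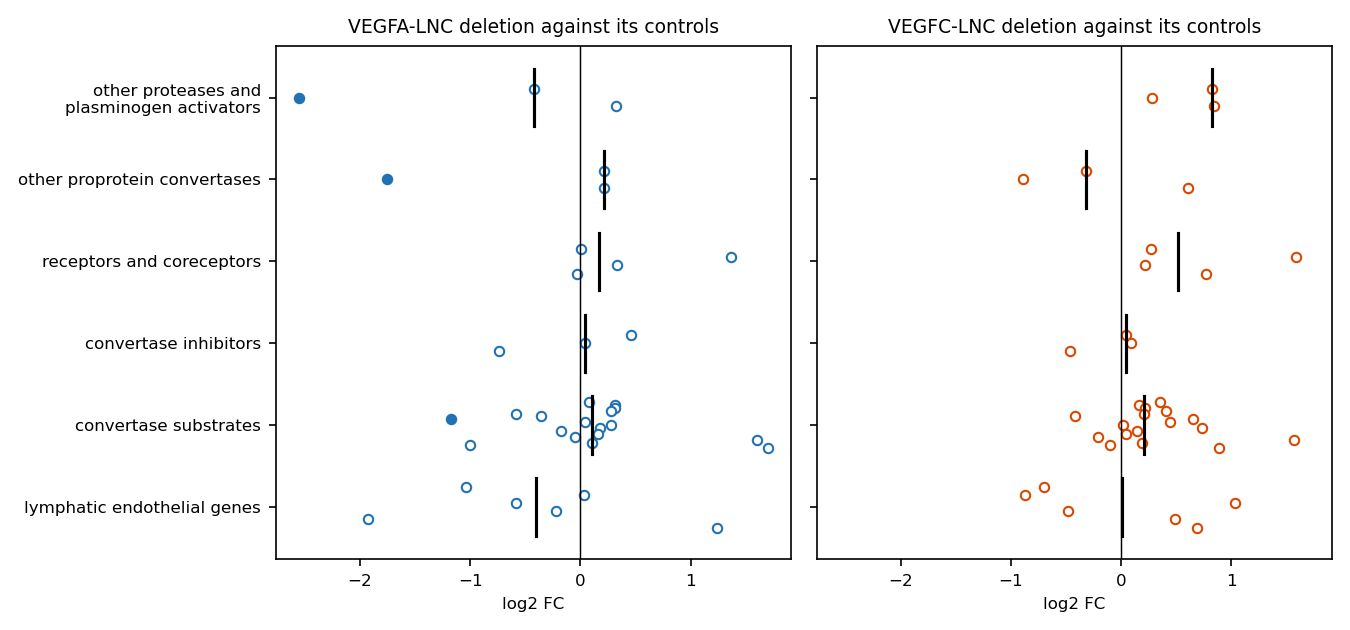
Log2 FC (x axis) of every tested gene of 6 lists (rows) for the *VEGFA-LNC* deletion (left) and the *VEGFC-LNC* deletion (right). Black bars are list medians and filled points are DEGs: *PLAT* (-2.55), *PCSK1* (-1.75) and *ITGAV* (-1.17), all upon *VEGFA-LNC* deletion.

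Of 6 receptors and coreceptors of VEGF-C 4 were tested and none was a DEG in any of the 4 comparisons. Of all tested genes 2.75% were DEGs upon *VEGFA-LNC* deletion and 0.472% upon *VEGFC-LNC* deletion. The shares were 1.45% for the difference between the deletions and 12.7% between the control sets. *FLT4*, which encodes the main VEGF-C receptor of lymphatic endothelium, had 6 reads in all, at most 2 in a library and none in 6 of the 10 libraries. *KDR*, the receptor shared with VEGF-A, was at 0.036 to 0.164 FPKM in the 4 controls. Among the clones it was at 0.046, 1.39 and 0.545 FPKM upon *VEGFA-LNC* deletion and at 0.038, 1.33 and 0.844 FPKM upon *VEGFC-LNC* deletion, so replicate 1 of each deletion was at control level and the others above it. The coreceptor *NRP1* was at 24.4 ± 1.21 and 32.4 ± 0.472 FPKM (SD, n = 2) in the control sets and at 30.7 ± 1.82 and 38.0 ± 3.43 FPKM (SD, n = 3) in the clones, with log2 FCs of 0.33 (SE 0.12, FDR = 0.178) and 0.22 (SE 0.12, FDR = 0.338). The integrin subunit *ITGB1* had log2 FCs of 0.01 (SE 0.18, FDR = 0.981) and 0.27 (SE 0.18, FDR = 0.427). *NRP2*, the coreceptor of lymphatic endothelium, ranged from 11.3 to 41.8 FPKM among the *VEGFA-LNC* clones and from 21.2 to 51.5 FPKM among the *VEGFC-LNC* clones. Of 7 lymphatic endothelial genes 6 were tested and none was a DEG, with medians of -0.40 and 0.00 in the deletions. The most strongly expressed were *NR2F2*, a venous and lymphatic nuclear receptor (log2 FC -0.48, SE 0.31, FDR = 0.404 upon *VEGFC-LNC* deletion), and *GATA2*, a transcription factor of lymphatic valves (-0.87, SE 0.24, FDR = 0.133). Upon *VEGFA-LNC* deletion their log2 FCs were -0.22 (SE 0.31, FDR = 0.747) and 0.03 (SE 0.24, FDR = 0.955). Of the 6 tested lymphatic genes, 3 had a log2 FC above 0 and 3 below upon *VEGFC-LNC* deletion. Upon *VEGFA-LNC* deletion 2 were above 0 and 4 below, the lowest being *PROX1* (-1.93, SE 0.57, limma FDR = 0.109). All 3 of these clones were below both controls for *PROX1*, as was the case for 23.7% of tested genes.

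The genes whose centred log2 profile over the 10 libraries lay nearest to each of the 5 were sought by the root mean square difference, as a description. *VEGFC* was nearest to *DET1* (0.141, beside 0.626 for the size of its own profile), *ETFDH* (0.181) and *COQ9* (0.194), of which *ETFDH* also lies on the long arm of chromosome 4 (159603260 to 159629865). *DET1* went from 1.81 ± 0.312 FPKM (SD, n = 2) in the *VEGFC-LNC* controls to 0.937 ± 0.140 FPKM (SD, n = 3) in the clones. *CCBE1* (profile 0.383) was nearest to *ARMC9* (0.181), *UBA6-AS1* (0.181) and *SEL1L* (0.2). *ARMC9* was at 4.90 ± 0.244 FPKM (SD, n = 2) in the *VEGFC-LNC* controls and 12.0 ± 1.61 FPKM (SD, n = 3) in the clones. *FURIN* (0.438) was nearest to *SPRED3* (0.112), *TMC7* (0.135) and *PROCR* (0.141), which share its low value in replicate 1 of the *VEGFA-LNC* deletion. *PCSK7* (0.167) was nearest to *KDM4C* (0.0543), *PPFIA1* (0.0704) and *SDAD1* (0.0761). *PCSK5* (0.420) was nearest to *MILR1* (0.161), *MAPK8IP1P2* (0.215) and *SLC9A3-AS1* (0.215), at read numbers where counting error makes up much of a profile.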

How the data were processed

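RNA-Seq of 10 EA.hy926 libraries was used. Per the labels and the study's methods, the authors trimmed reads with Trim Galore 0.4.4, aligned them to GRCh37 with STAR 2.5.4b and assigned them with featureCounts. The deposited table gives FPKM per RefSeq transcript (65572 rows), already scaled by transcript length and library size by the authors, and the program that wrote it and its strand setting are not given in the sources used here. Overlapping genes on opposite strands may therefore share reads. Library sizes were chosen so that FPKM multiplied by length and size gave whole reads, which held for at least 99.98% of the values checked (within rounding and 0.02 reads).

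One transcript per symbol was kept, and genes with a CPM of at least 1 in 2 libraries were tested. limma 3.58.1 (R 4.3.3) was fitted to log2(FPKM + 0.1) in 1 fit of the 4 groups, with an intensity trend and Benjamini-Hochberg adjustment over all 13334 genes, so FCs of low genes are understated. DEGs had an FDR below 0.05 and a 1.5-fold change. The study tested counts with a count model. The main fit here used the deposited FPKM, which are not counts, and voom on the reads recovered from them was an alternative. Exact permutation tests used scipy 1.17.1. Tested on simulated data for the *VEGFC-LNC* comparison, the fit recovered 189 of 200 genes changed 8-fold among 13334, with 10 false calls. Smaller changes, such as the 2.0-fold fall of *VEGFC*, were not simulated. The simulation gave each gene the same spread in all groups. In the data the median SD of tested genes (log2) was 0.065 and 0.0639 in the control sets. It was 0.287 in the *VEGFA-LNC* clones and 0.249 in the *VEGFC-LNC* clones. The 4 groups share 1 estimate of the spread, so tests between the control sets take in the wider spread of the clones.

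The 5 genes and the gene lists were chosen with earlier results of these data known. Beside the 5 genes, the text names genes of the pathway lists that were DEGs in any comparison, otherwise the 2 with the highest mean FPKM of a pathway list, the 3 genes nearest in profile to each of the 5, the nearest tested gene on each side of *VEGFC* and *CCBE1*, and DEGs within 1 Mb. Alternatives were other pseudocounts, filters, scalings, transcripts, control sets, a replicate block and leaving out each library.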

Additional observations from a re-analysis of the deposited data

Results flagged for a closer look

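*ITGAV* differed between the deletions in the test of the difference itself. Its log2 FC was -1.17 (SE 0.16) upon *VEGFA-LNC* deletion, with all 3 clones below both controls (as for 23.7% of tested genes), and 0.65 (SE 0.16, FDR = 0.11, not a call) upon *VEGFC-LNC* deletion, with all 3 clones above both controls (as for 17.2% of tested genes), a difference of 1.82 (SE 0.23, limma FDR = 0.0115). The *VEGFC-LNC* controls started from 18.2 ± 0.856 FPKM (SD, n = 2) and the *VEGFA-LNC* controls from 79.4 ± 1.21 FPKM (SD, n = 2). The difference lost its call with each pair of controls counted as 1 sample (FDR = 0.493) and without any one of the 4 control libraries (FDR 0.0801 to 0.0983). Against all 4 controls the log2 FC upon *VEGFA-LNC* deletion was -0.10 (FDR = 0.946).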

How the results depend on the processing

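Of 396 alternative values for the 5 genes, 368 kept their direction and their side of the thresholds. The fall of *VEGFC* upon *VEGFC-LNC* deletion kept its direction in every alternative and lost its call with the control pairs averaged (log2 FC -1.0, FDR = 0.825), with only the 5 libraries of the comparison (-1.0, FDR = 0.0712) and with the replicate block (-0.96, FDR = 0.0743), and ranged from -1.07 to -0.92 with 1 library left out. Between the control sets *VEGFC* lost its call with the median of ratios (-0.57), voom (-0.56) and averaged control pairs (-0.68, FDR = 0.517), and ranged from -0.75 to -0.61 with 1 library left out. *CCBE1* upon *VEGFA-LNC* deletion turned to 0.11 against all 4 controls. Upon *VEGFC-LNC* deletion *FURIN* turned to -0.13 and *PCSK7* to -0.054 against all 4 controls. With 1 library left out, *PCSK7* ranged from -0.0076 to 0.22 and *PCSK5* from -0.61 to 0.027 upon *VEGFC-LNC* deletion, and the difference between the deletions for *PCSK5* ranged from -0.26 to 0.46. None of these reversed values was a call.

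The number of DEGs moved with the fit (367 for *VEGFA-LNC*, 63 for *VEGFC-LNC*, 194 for the difference, 1690 between control sets). Without a filter there were 616 for *VEGFA-LNC* and 452 for the difference, and voom gave 571 for *VEGFA-LNC*. Averaged control pairs gave 0, 1, 0 and 0, with 834, 592, 689 and 1224 genes at an unadjusted p under 0.05 in limma. The 4 controls together gave 29 for *VEGFA-LNC*, and only the 5 libraries of a comparison gave 20 and 26. With 1 library left out the counts ran from 6 to 1732, 5 to 1158, 5 to 694 and 33 to 3068, the highest each without replicate 1 of the *VEGFA-LNC* deletion. A lone sample left in a group is assumed to vary like the other groups.

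Deviations of same-numbered libraries from their group means correlated at -0.055 to 0.047 between controls and any group. The 2 controls of a set lay close together (median SD 0.065 and 0.0639). Their deviations are therefore small and largely noise, and cannot show whether the numbers pair clones with their controls. Between same-numbered clones of the 2 deletions they correlated at 0.553, 0.409 and 0.219. Between libraries of other numbers the values ran from -0.54 to 0.263. Replicate 3 of the *VEGFC-LNC* deletion correlated more with replicate 2 (0.263) than with replicate 3 of the other deletion. Nothing in the labels pairs clones of the 2 deletions, so the replicate block is an alternative fit and not part of the design. With the block the difference between the deletions was -0.49 for *VEGFC* (FDR = 0.206), 1.09 for *CCBE1* (FDR = 0.103) and 1.82 for *ITGAV* (FDR = 0.0426), with no call among the 5 genes. The block moved the DEG counts to 151, 20 and 86 for the deletions and their difference. Of the other named genes it ended the calls of *PLAT* and *COL1A1* upon *VEGFA-LNC* deletion (FDR = 0.0598 and 0.0997) and of *PLAT*, *SERPINB8* and *COL1A1* between control sets (FDR = 0.0602, 0.0519 and 0.063).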
